A study of Mus musculus with 4 samples.

Results

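Histones are the proteins that DNA is wound around, and their genes fall into 2 broad kinds. Replication-dependent histone genes lie in clusters of many near-identical copies, are transcribed mainly in S phase, and make mRNAs that end in a stem-loop instead of a poly(A) tail. Variant histone genes, such as those of H2A.Z, H2A.X, macroH2A, H3.3 and CENP-A, are mostly single genes with polyadenylated mRNAs, and several of their products are placed in chromatin outside replication or at particular sites such as the centromere. Brg1, encoded by Smarca4, is an ATPase of the SWI/SNF complexes, which slide and evict nucleosomes, the particles that histones form with DNA.

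Histone probe sets were chosen by gene symbol in the platform annotation: Cenpa, or a symbol that starts as a histone gene name of the H1, H2A, H2B, H3, H4 or macroH2A families. This gave 51 of the 22690 probe sets. Of these, 24 hold replication-dependent symbols only and 18 hold variant symbols only. Another 8 are called mixed here, since their annotation lists a histone gene with a gene or pseudogene that lacks a histone symbol. The last 1 holds the testis-specific linker histone gene H1f6. Classes went by symbol, so the pseudogenes H2bu1-ps and Macroh2a3 were counted as replication-dependent and variant. The 8 mixed probe sets comprise 5 for H3f3a and H3f3b (the H3.3 genes), 2 for H2az1 with the pseudogene Gm8203, and 1 for H2aw with Trim17.

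Expression was measured on 4 Affymetrix arrays in R1 cells, an established mouse embryonic stem cell line. The Brg1 knockdown group was 2 samples of cells infected with a lentivirus carrying an shRNA against Brg1. The control group was 2 samples of cells infected with a lentivirus carrying an shRNA against the glucose transporter GLUT4. All were harvested 67 h after infection, and no uninfected cells are among the 4 samples, so every sample carries a virus and an shRNA.

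How the reverse transcription was primed was not given in the labels used here. Priming on poly(A) misses most replication-dependent mRNAs, so it is open whether their signals measure the stem-loop mRNAs. The values are probe set signals on a linear scale with a trimmed mean of 200.1 on each array. Smarca4 had signals of 652.1 and 621.5 in the knockdown, against 1186.6 and 1213.6 in the control, a log2 difference of -0.89 ± 0.08 (SE; adjusted p = 0.000985, limma). All 10 embryonic stem cell markers examined reached the filter used below, and 4 of them rose (Nanog, Klf2, Esrrb and Fgf4) and 0 fell. Without overlap between the groups, 5 lay higher in the knockdown and 1, Sox2, lower. The summed signal of the 10 was 20437.4 and 20047.8 in the knockdown against 18155.9 and 18484.3 in the control. Of 12 fibroblast markers, 3 reached the filter (Vim, Acta2 and Thy1). Vim rose by 1.10 ± 0.09 on the log2 scale (SE; adjusted p = 0.000515, limma), 0 fell, and Thy1 was lower without passing the test. The summed fibroblast signal was 1382.5 and 1434.2 in the knockdown against 717.8 and 768.1 in the control, most of it from Vim, while Col1a1, Col1a2, Dcn, Lum and Postn lay between 0.6 and 30.7 on all 4 arrays. Of 9 markers of differentiated cells on the array 3 were tested (Krt8, Krt18 and Pax6). Among these 3, Krt8 rose by 1.04 ± 0.11 on the log2 scale (SE; adjusted p = 0.00152, limma) and 0 fell. The summed signal of the 9 was 1341 and 1480.5 in the knockdown against 864.6 and 954 in the control. Most of it came from Krt8 and Krt18, while Gata4, Gata6, Sox17, Cdx2, Mixl1 and Sox1 lay between 2.1 and 31.1 on all 4 arrays. The part of these differences in the histone results was not tested. In cultures measured in bulk, fewer cells of a type and less RNA per cell cannot be told apart.

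Tests were made on log2(signal + 20.0) with limma over all 13576 probe sets with a mean at or above the 40th percentile, which is 23.9 signal units, and p-values were adjusted over all 13576. Of the 51 histone probe sets, 31 reached this filter: 12 of the 24 replication-dependent, 11 of the 18 variant and all 8 mixed ones. The adjusted p was under 0.05 for 5 of the 31, or 16.1%, against 9.13% of all tested probe sets. Of the 31, 3 rose (9.68%, against 5.76% of all) and 2 fell (6.45%, against 3.37% of all). With so few calls these shares rest on single probe sets. Of the 5 called, 1 of those that rose (1460314_s_at) and 1 of those that fell (1435866_s_at) had a mean below the filter level in their dim group, so they were tested only through their bright group, and these shares support nothing about histones as a group. Over all tested probe sets 782 were higher and 458 lower, and this split was 716 and 830 with each array centred on its median and 2145 and 53 with scaling to the spike-in transcripts. The groups did not overlap in 23 of the 31, against 58.4% of all. A probe set annotated to several H4 genes, a probe set annotated to several H3 genes and Macroh2a1 rose. Those that fell were 1 of the probe sets listing H2aw and 1 of 5 H3.3 probe sets.

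**Figure D1:**
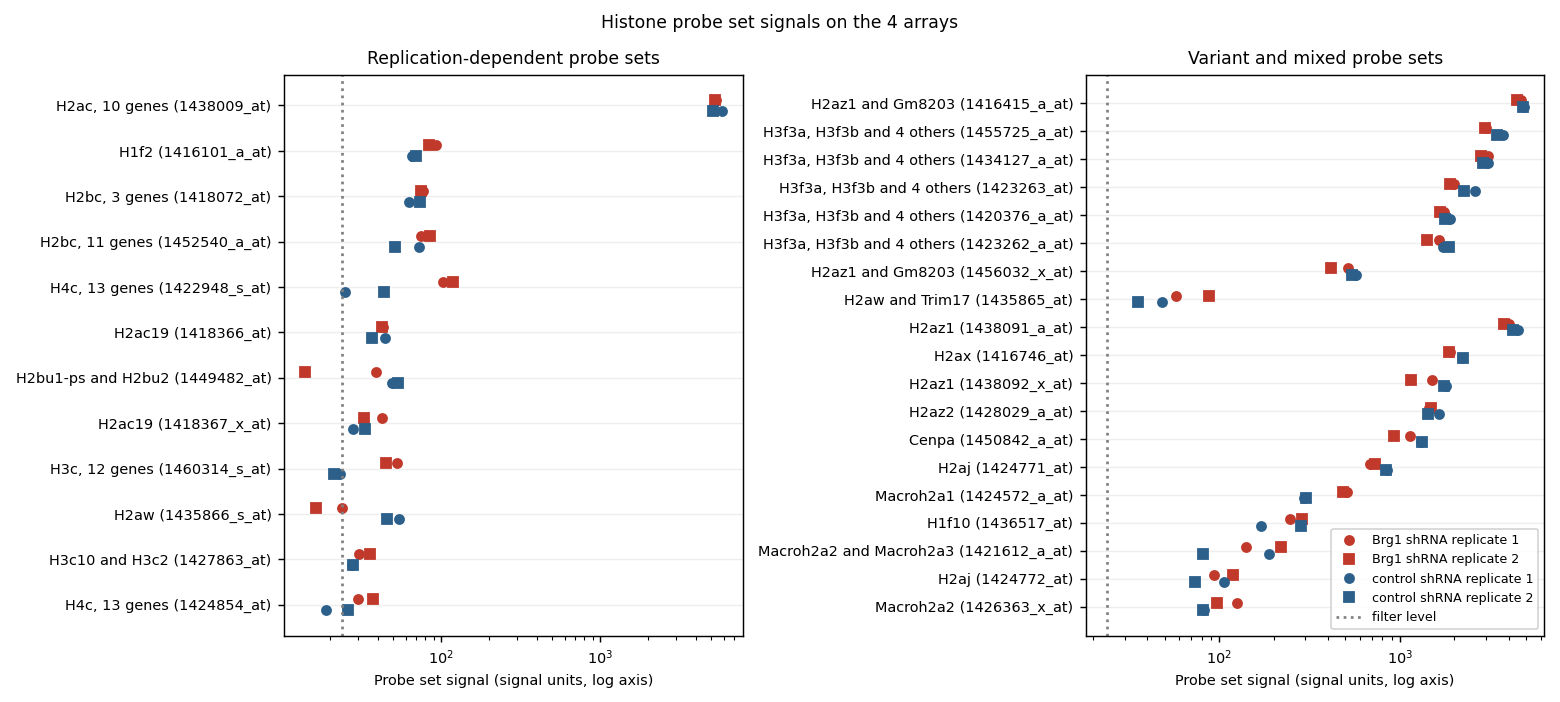
Signal of each of the 31 tested histone probe sets on the 4 arrays (log axis, signal units), with the 2 knockdown arrays in red above the 2 control arrays in blue and the filter level of 23.9 as a dotted line. Among the 12 replication-dependent probe sets, the one for 10 H2A genes lies at 5148.5 or above on every array and the other 11 lie at 119.0 or below; signals of different probe sets are not levels relative to each other.

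The largest difference among the members was in the probe set 1422948_s_at, which the annotation assigns to 13 H4 genes. H4 is the core histone that pairs with H3. The signals were 102.8 and 119.0 in the knockdown, against 25.0 and 44.1 in the control. Both knockdown arrays lay above both control arrays, and the control arrays lay close to the filter level. The log2 difference was 1.28 ± 0.19 (SE; adjusted p = 0.00613, limma), a 2.43-fold rise on the scale with the pseudocount. Its size depends on that scale and was 1.59 with a pseudocount of 5.00 and 0.74 with one of 80.0.

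The identity of this probe set is not settled by the annotation. The sequence accession listed with it belongs, in RefSeq, to H3c1, a replication-dependent H3 gene, and not to any of the 13 H4 genes. Of the 14 histone probe sets whose accession RefSeq holds, 12 had that gene among their symbols. The other 2 are this probe set and 1422947_at, which has the same H4 symbols. That probe set had signals of 1.8 and 1.5 in the knockdown and 3.4 and 3.6 in the control and was not tested.

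The remaining H4 probe sets did not pass the test or were too dim for it. The probe set 1424854_at had 30.2 and 37.2 in the knockdown and 19.0 and 26.2 in the control, a log2 difference of 0.34 ± 0.18 (SE; adjusted p = 0.256). Its knockdown arrays lay above its control arrays, but its control mean, 22.6, lay below the filter level. It was therefore tested only through its knockdown signal. The last, 1428014_at, had 9.0 and 10.2 in the knockdown and 12.2 and 9.3 in the control. All 4 H4 probe sets list the same 13 genes, so by their annotation they are not measurements of different genes.

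Of 6 replication-dependent H3 probe sets, 2 were tested. The probe set 1460314_s_at, assigned to 12 H3 genes, had 53.3 and 45.0 in the knockdown, against 23.2 and 21.2 in the control. It rose by 0.71 ± 0.16 on the log2 scale (SE; adjusted p = 0.0314, limma). Both control arrays lay below the filter level, so it was tested only through its knockdown signal. The call was lost when 1 array was left out in 3 of 4 cases. The adjusted p was 0.0621 without the first knockdown replicate, 0.113 without the first control replicate and 0.13 without the second control replicate, with log2 differences of 0.62, 0.74 and 0.68. The probe set for H3c10 and H3c2 had 30.6 and 36.1 in the knockdown and 27.8 and 28.1 in the control (log2 difference 0.15 ± 0.16, adjusted p = 0.581). Of the 4 untested H3 probe sets, the one for H3c4 lay nearest to the filter, with 22.2 and 19.7 in the knockdown and 15.3 and 15.5 in the control. That of H3c7 had 24.7 and 8.0 in the knockdown and 9.8 and 22.9 in the control, and the other 2 stayed at or below 17.8 on every array.

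Replication-dependent H2A genes gave 1 fall in 4 tested probe sets. The brightest histone probe set, 1438009_at, assigned to 10 H2A genes of the large cluster, had 5364.3 and 5314.2 in the knockdown and 5843.0 and 5148.5 in the control. The groups overlapped, and the log2 difference was -0.04 with a 95% interval of -0.21 to 0.13 (adjusted p = 0.772). H2ac19, an H2A gene of a smaller cluster, has 2 tested probe sets, with log2 differences of 0.05 ± 0.16 and 0.18 ± 0.17 (SE), neither past the test. H2aw, an H2A gene outside the large cluster, fell in the probe set 1435866_s_at. Its signals were 24.0 and 16.5 in the knockdown, against 54.2 and 46.1 in the control, a log2 difference of -0.81 ± 0.17 (SE; adjusted p = 0.0257, limma). The knockdown mean, 20.3 ± 5.30 (SD, n = 2), lay below the filter level, so this probe set was tested only through its control signal, 50.2 ± 5.73.

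The fall of H2aw was not seen in the other probe set that lists it. The probe set 1435865_at, assigned to H2aw and Trim17 together, had 57.5 and 88.2 in the knockdown and 48.4 and 35.5 in the control. Its log2 difference was 0.57 ± 0.20 (SE; adjusted p = 0.104), of the opposite sign and without overlap between the groups. The annotation does not say which of the 2 genes this signal comes from. The call of 1435866_s_at did not survive leaving out the second knockdown replicate (adjusted p = 0.0771) or either control replicate (0.154 and 0.0784).

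No replication-dependent H2B or H1 probe set passed the test, where by limma 1 H2B probe set was lower and 1 H1 probe set higher at an unadjusted p under 0.05. Over all 13576 tested probe sets, 1730 were lower and 2093 higher at that unadjusted p. The H2B probe set 1452540_a_at, for 11 genes, had 75.1 and 84.9 in the knockdown and 72.8 and 51.6 in the control (log2 difference 0.29 ± 0.17, adjusted p = 0.287). That for H2bc4, H2bc6 and H2bc8 had 77.2 and 74.7 in the knockdown and 63.3 and 73.6 in the control (0.12 ± 0.14, adjusted p = 0.619). In both, the knockdown arrays lay above the control arrays, and neither passed the test. The probe set of H2bu2 and the pseudogene H2bu1-ps lay the other way, with 39.3 and 14.0 in the knockdown and 49.6 and 53.7 in the control (-0.67 ± 0.25, adjusted p = 0.122). H1f2, a linker histone that binds the DNA between nucleosomes, had 93.8 and 84.0 in the knockdown and 65.6 and 69.5 in the control (0.31 ± 0.14, adjusted p = 0.176).

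Of the 12 replication-dependent probe sets that were not tested, 3 had both knockdown arrays above both control arrays, against 25.5% of all probe sets below the filter, which is close to the same share. Besides H3c4 these were H2bc18, with 16.5 and 28.3 in the knockdown and 8.3 and 12.6 in the control, and H2bc22, with 14.2 and 23.5 in the knockdown and 6.9 and 4.8 in the control. Of these 12 probe sets, 1 lay the other way, the H4 probe set 1422947_at, against 11.2% of all below the filter. H1f4, 2 further H1f2 probe sets, a further H2B probe set and the testis gene H1f6 stayed at or below 20.7 on every array.

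Among the variants, Macroh2a1 rose. It encodes macroH2A1, an H2A variant with a large globular domain that is known for its presence on the inactive X chromosome. Its signals were 512.4 and 485.1 in the knockdown, against 293.3 and 301.0 in the control. The arrays of each group lay close together, and the groups were far apart. The log2 difference was 0.71 ± 0.09 (SE; adjusted p = 0.00388, limma), a 1.64-fold rise. The adjusted p stayed under 0.05 under each alternative tried, between 0.000174 and 0.0208, with differences of 0.62 to 1.02.

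Macroh2a2, the gene of the related variant macroH2A2, did not pass the test. The probe set for it alone, 1426363_x_at, had 124.9 and 96.8 in the knockdown and 82.5 and 81.2 in the control (log2 difference 0.35 ± 0.15, adjusted p = 0.16). The probe set it shares with Macroh2a3, a pseudogene in RefSeq, had 141.0 and 220.9 in the knockdown and 187.7 and 81.9 in the control (0.44 ± 0.31, adjusted p = 0.391). Replicates in that probe set differed by more than the groups did.

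On the deposited scale, most bright variant probe sets had slightly lower signals in the knockdown, and of these only an H3.3 probe set passed the test. With scaling to the spike-in transcripts the variant median, without the mixed probe sets, was positive, at 0.27. That of all tested probe sets was 0.30 under the same scaling. H2A.Z, an H2A variant found at promoters, is encoded by H2az1 and H2az2. The 2 probe sets of H2az1 alone had 4001.4 and 3748.7 in the knockdown against 4478.2 and 4204.6 in the control, and 1509.0 and 1145.4 in the knockdown against 1801.0 and 1754.2 in the control. Neither overlapped, with log2 differences of -0.16 ± 0.07 and -0.43 ± 0.12 (SE; adjusted p = 0.171 and 0.0588). The 2 probe sets that H2az1 shares with Gm8203 gave -0.09 ± 0.06 and -0.25 ± 0.12 (adjusted p = 0.411 and 0.196). H2az2 had 1452.9 and 1481.5 in the knockdown and 1638.6 and 1424.3 in the control, which overlap, and its 95% interval was -0.26 to 0.14.

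H2ax encodes H2A.X, which is phosphorylated at DNA breaks. Its signals were 1897.1 and 1874.7 in the knockdown and 2207.9 and 2244.6 in the control, a log2 difference of -0.24 ± 0.07 (SE; adjusted p = 0.068, limma). Cenpa, whose product replaces H3 at centromeres, had 1135.2 and 924.3 in the knockdown and 1315.0 and 1332.3 in the control, a difference of -0.36 ± 0.10 (adjusted p = 0.0622). Neither gene overlapped between the groups, and neither passed the test over all probe sets. With 1 probe set per gene and 7815 genes tested, both passed (adjusted p = 0.0445 for H2ax and 0.0386 for Cenpa).

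H3.3 is the H3 variant deposited at active genes and at telomeres, and H3f3a and H3f3b encode the same protein. Their 5 probe sets list both genes, H3f3c and 3 genes or pseudogenes with predicted names, so the 2 genes cannot be told apart. The log2 differences were -0.33, -0.26, -0.24, -0.10 and -0.02. The probe set 1423263_at fell, with 1986.9 and 1882.2 in the knockdown against 2610.6 and 2270.6 in the control, -0.33 ± 0.09 (SE; adjusted p = 0.049, limma). The next, 1455725_a_at, had 3004.0 and 2939.6 in the knockdown and 3696.5 and 3432.9 in the control, with an adjusted p of 0.0542. The smallest difference was that of 1434127_a_at, with 3079.4 and 2814.9 in the knockdown and 3069.3 and 2885.8 in the control. The call of 1423263_at was close to the threshold. Leaving out the second knockdown replicate gave an adjusted p of 0.164, leaving out the first control replicate gave 0.21, and the spike-in scaling gave 0.993 with a log2 difference of -0.002.

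Other variants did not pass the test. The H2A variant gene H2aj had 684.1 and 724.5 in the knockdown and 843.8 and 834.4 in the control in its brightest probe set, a log2 difference of -0.25 ± 0.08 (adjusted p = 0.0983). Its second tested probe set had the other sign, 0.21 ± 0.18 (adjusted p = 0.476). The linker histone variant gene H1f10 had 247.7 and 288.2 in the knockdown and 170.7 and 283.1 in the control, and its groups overlapped. Variants of the germline were dim on all 4 arrays: the oocyte linker histone H1f8 lay at 2.9 or below, and the probe sets of H2al2a, H2ap and 11 H2al1 genes lay at 12.4 or below. Another probe set of H2aj and 2 of Macroh2a3 alone stayed at or below 26.4 on every array and were not tested.

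**Figure D2:**
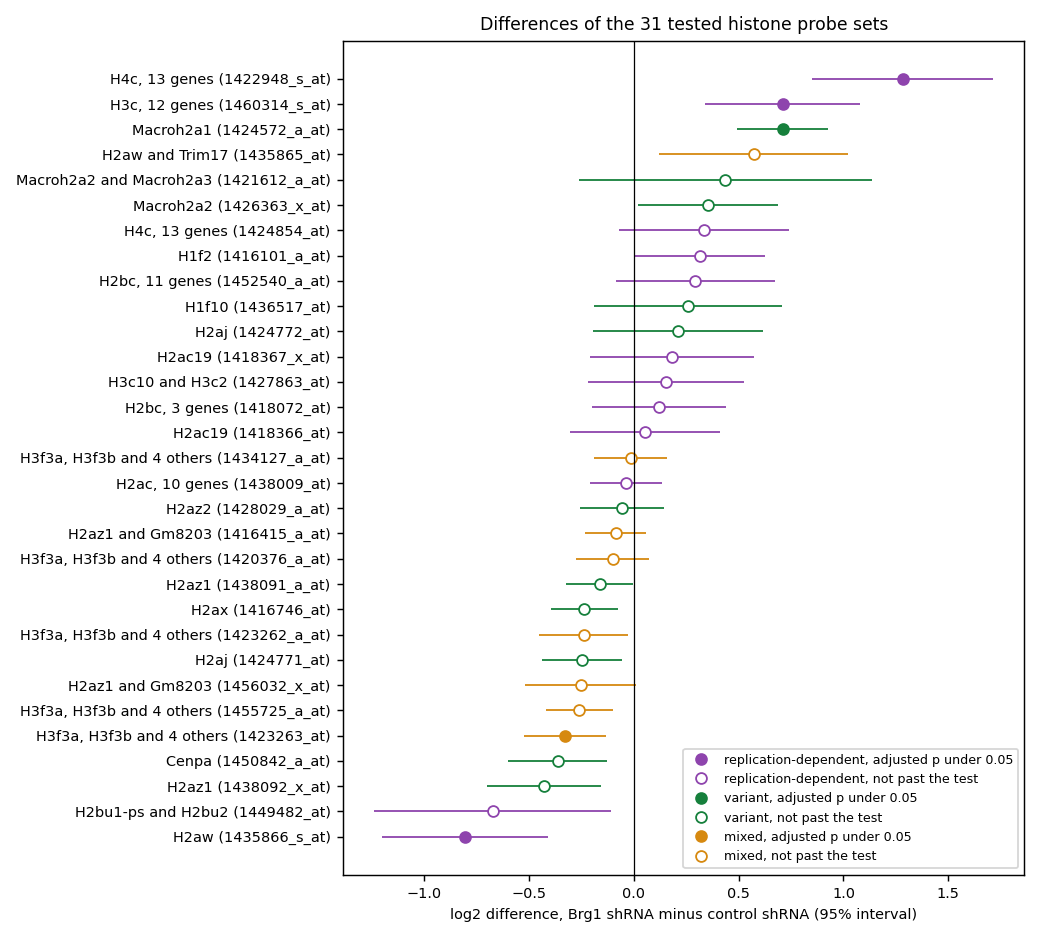
The log2 difference, Brg1 shRNA minus control shRNA, of each of the 31 tested histone probe sets with its 95% interval; filled points had an adjusted p under 0.05 (limma). The 3 rises are 1422948_s_at (annotated to H4 genes, identity not settled), the H3 probe set 1460314_s_at and Macroh2a1. The 2 falls are H2aw and the H3.3 probe set 1423263_at.

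On the deposited scale the median was above 0 for the replication-dependent probe sets and slightly below 0 for the variants. Of the 12 tested replication-dependent probe sets, 9 had a positive log2 difference, with a median of 0.17. In 7 the knockdown arrays lay above the control arrays without overlap, and in 2 below. Over all tested probe sets the median was 0.01, and 30.6% lay above and 27.8% below without overlap. Dim probe sets that passed the filter through a high knockdown signal count among the 7, such as the H3 probe set 1460314_s_at and the H4 probe set 1424854_at. Of the 11 tested variant probe sets, 6 had a negative difference, against 48.2% of all tested probe sets, the median was -0.06, 2 lay above and 5 below without overlap. With the 7 mixed probe sets of H2az1 and H3.3 added, 13 of 18 had a negative difference, the median was -0.13, and 11 lay below without overlap and 2 above. Many of these 18 list the same genes, H2az1 or the H3.3 genes, so they are not measurements of 18 different genes. Without the filter the median of the variants was 0.04.

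On each array, the median deviation of the replication-dependent probe sets from their 4-array mean was 0.07 and 0.07 in the knockdown and -0.11 and -0.07 in the control, on the log2 scale. That of the 11 variants was -0.04 and -0.01 in the knockdown and 0.13 and 0.04 in the control. For all tested probe sets it was between -0.01 and 0.01 on each array. The difference between the 2 classes was not tested, since their members were chosen with earlier results known. Many replication-dependent and some variant probe sets also share genes. The classes also differ in signal, since 11 of the 12 replication-dependent probe sets lay below 120 units on every array, and that part was not tested.

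The sign of the variant median depends on how the arrays are scaled. It was -0.11 with each array centred on its median, 0.01 with quantile normalization and 0.27 with scaling to the spike-in transcripts, where the median of all tested probe sets was -0.04, -0.01 and 0.30. The replication-dependent median was 0.12, 0.10 and 0.38 under the same scalings, above the median of all probe sets each time. The same 12 probe sets entered each time, and they include dim ones tested only through their knockdown signal. With the filter at the 60th percentile 1 of them was left, at -0.04. The replication-dependent median also depends on the pseudocount, with 0.23 at 5.00 and 0.08 at 80.0. The spike-in scaling rests on 18 Bio and Cre control probe sets. Their mean log2 signal was 9.44 and 9.14 in the knockdown and 9.67 and 9.57 in the control. The 2 knockdown arrays thus also differed from each other by this measure. Whether these controls track the amount of RNA was not tested.

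**Figure D3:**
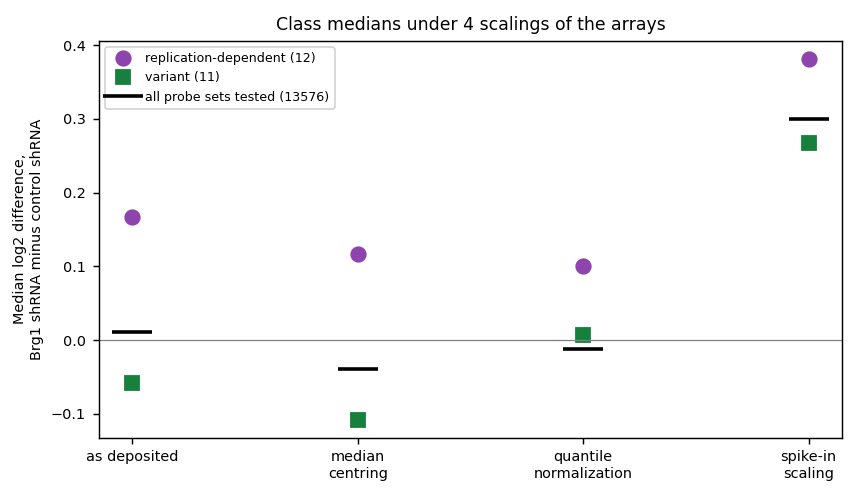
Median log2 difference, Brg1 shRNA minus control shRNA, of the 12 replication-dependent and the 11 variant probe sets and of all 13576 tested probe sets (black bars) under 4 scalings of the arrays. The replication-dependent median lies above that of all probe sets in each scaling, and the variant median lies below it in 3 and above it with quantile normalization. The same 12 replication-dependent probe sets enter each scaling, and they include dim ones tested only through their knockdown signal.

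The promoters of the 2 kinds of gene held known motifs in different shares. The CCAAT box is bound by the NF-Y complex, the TATA box by TBP, and the octamer by POU proteins such as Oct1, and all 3 are known elements of histone promoters. The letters searched were CCAAT for the first. For the TATA box they were TATAAA. For the octamer they were ATTTGCAT. RefSeq promoters (GRCm38.p6) were held for 73 of the 80 histone genes in the member probe sets, and the 250 bases before each start were searched on both strands; no motif contains another. The CCAAT box was present in 12 of 12 H2A, 12 of 12 H2B and 8 of 10 H3 replication-dependent promoters, but in 3 of 12 H4 promoters. It was in 8 of 24 variant promoters and in 33.8% of all 32851 promoters. The variant promoters were drawn from every variant gene listed for the members. These include the germline genes H1f8, H2ap, H2al2a and 11 H2al1 genes, which were dim on all 4 arrays. The variant shares are therefore not those of the bright variants alone. The TATA box was in 41.7% of the replication-dependent and 4.17% of the variant promoters, against 12.4% of all. The octamer was in 5 of 12 H2A and 3 of 12 H2B promoters and in none of the H1, H3 and H4 ones, in 4.17% of the variant promoters, and in 1.6% of all. A match is a description of the letters and not of a bound site.

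The sequences below are the 150 bases before the start of 7 genes, chosen to show each kind of promoter beside the results, in lower case with every match to the 3 motifs in capitals. H3c2 (chr13:23752195-23752344, plus strand) and H4c4 (chr13:23581418-23581567, plus strand) are among the genes listed for the H3 and H4 probe sets that rose. H2aw (chr11:58954535-58954684, plus strand) fell in 1 of its probe sets, and H2bc8 (chr13:23571250-23571399, plus strand) belongs to an H2B probe set that did not pass. H3f3b (chr11:116024505-116024654, minus strand) and H2az1 (chr3:137864337-137864486, plus strand) are variants, of which 1 of 5 probe sets listing H3f3b fell and no H2az1 probe set passed the test, and Macroh2a1 (chr13:56135551-56135700, minus strand) is the variant that rose.
H3c2: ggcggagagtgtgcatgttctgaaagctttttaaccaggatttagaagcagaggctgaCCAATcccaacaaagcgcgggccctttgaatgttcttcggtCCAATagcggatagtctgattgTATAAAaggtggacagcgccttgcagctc
H4c4: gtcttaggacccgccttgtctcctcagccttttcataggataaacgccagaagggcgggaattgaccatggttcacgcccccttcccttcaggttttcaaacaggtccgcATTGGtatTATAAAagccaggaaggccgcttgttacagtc
H2aw: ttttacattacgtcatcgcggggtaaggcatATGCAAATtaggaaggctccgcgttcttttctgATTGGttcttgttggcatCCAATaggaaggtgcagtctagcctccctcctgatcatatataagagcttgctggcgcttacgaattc
H2bc8: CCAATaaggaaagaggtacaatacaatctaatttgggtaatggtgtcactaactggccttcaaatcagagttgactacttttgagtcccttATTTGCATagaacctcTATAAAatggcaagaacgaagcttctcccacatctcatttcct
H3f3b: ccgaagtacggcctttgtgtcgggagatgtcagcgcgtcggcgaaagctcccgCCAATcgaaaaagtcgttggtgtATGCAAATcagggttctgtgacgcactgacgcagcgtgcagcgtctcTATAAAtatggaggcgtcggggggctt
H2az1: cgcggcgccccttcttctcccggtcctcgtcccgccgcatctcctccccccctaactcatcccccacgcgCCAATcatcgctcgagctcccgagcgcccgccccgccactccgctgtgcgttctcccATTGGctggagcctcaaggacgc
Macroh2a1: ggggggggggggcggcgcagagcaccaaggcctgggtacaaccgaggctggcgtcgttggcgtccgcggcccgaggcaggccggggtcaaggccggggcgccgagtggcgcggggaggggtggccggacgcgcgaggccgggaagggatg

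H3c2 shows 2 CCAAT matches and a TATAAA match close to the start, and H4c4 shows a TATAAA match with 1 CCAAT match in reverse beside it. H2bc8 and H3f3b each hold all 3 motifs, the first a cluster gene and the second a variant. Among the 24 variant promoters, H3f3b was the only 1 with a TATAAA match and the only 1 with an octamer match. H4c4 is among the 3 of 12 H4 promoters with a CCAAT match, so neither is typical of its kind. The stretches of H2az1 and H2aw hold 2 CCAAT matches each and no TATAAA, with an octamer in that of H2aw, and that of Macroh2a1 holds none of the 3.

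Genes that make and handle histones mostly did not pass the test, and the same holds for most probe sets. Over all 13576 tested probe sets 5.76% rose and 3.37% fell. At an unadjusted p under 0.05 by limma, 2093 of them were higher and 1730 lower. Of 86 genes in 3 lists, 71 had a probe set of their own and 69 were tested. In the list for histone mRNA synthesis and 3' end processing, 1 of 20 rose, 0 fell and 19 did not pass (median log2 difference -0.04), where by limma 2 were higher and 3 lower at an unadjusted p under 0.05. The gene that rose was Nfyc, a subunit of NF-Y, with 585.1 and 620.3 in the knockdown against 409.4 and 415.9 in the control, 0.52 ± 0.09 (SE; adjusted p = 0.0114, limma). Nfyb, another NF-Y subunit, had 356.6 and 332.0 in the knockdown and 466.9 and 398.0 in the control (-0.31 ± 0.11, adjusted p = 0.11). Myb (-0.54 ± 0.16, adjusted p = 0.0646) and E2f1, a transcription factor of S phase entry (0.33 ± 0.11, adjusted p = 0.0916), did not pass. Slbp, which binds the histone mRNA stem-loop and was named after its values were seen, had 1010.5 and 1003.2 in the knockdown and 1137.5 and 1117.0 in the control (-0.16 ± 0.08, adjusted p = 0.215).

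Of 29 tested histone chaperones and exchange factors, 0 rose and 0 fell by limma (median -0.004), with 3 higher and 1 lower at an unadjusted p under 0.05. Of all 13576 tested probe sets, 782 rose and 458 fell, with 2093 higher and 1730 lower at that unadjusted p. The smallest p-values were those of Daxx, a chaperone of H3.3 (0.33 ± 0.09, adjusted p = 0.0573), Ino80, the ATPase of a remodeller (0.37 ± 0.10, adjusted p = 0.0618), and Ep400, an ATPase linked to H2A.Z exchange (0.28 ± 0.10, adjusted p = 0.099).

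Replication-dependent histone mRNAs follow S phase, so S phase genes were set beside them. Of 20 tested S phase genes, 0 rose, 2 fell and 18 did not pass (median 0.05), with 2 higher and 2 lower at an unadjusted p under 0.05. Of all 13576 tested probe sets, 782 rose and 458 fell, with 2093 higher and 1730 lower at that unadjusted p. Gins1, a subunit of the replicative helicase, fell, with 290.0 and 292.5 in the knockdown against 430.0 and 408.0 in the control, -0.50 ± 0.10 (SE; adjusted p = 0.0171, limma). The other fall was Tk1, thymidine kinase, at -0.54 ± 0.09 (adjusted p = 0.00861). With the spike-in scaling, 8 of the 69 genes were higher and 0 lower, against 2145 and 53 of all 13576 tested probe sets. The falls of Gins1 and Tk1 are therefore relative to the deposited scale. Pcna, the replication clamp, named after its values were seen, had 4827.2 and 4728.6 in the knockdown and 4841.5 and 4507.9 in the control.

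**Figure D4:**
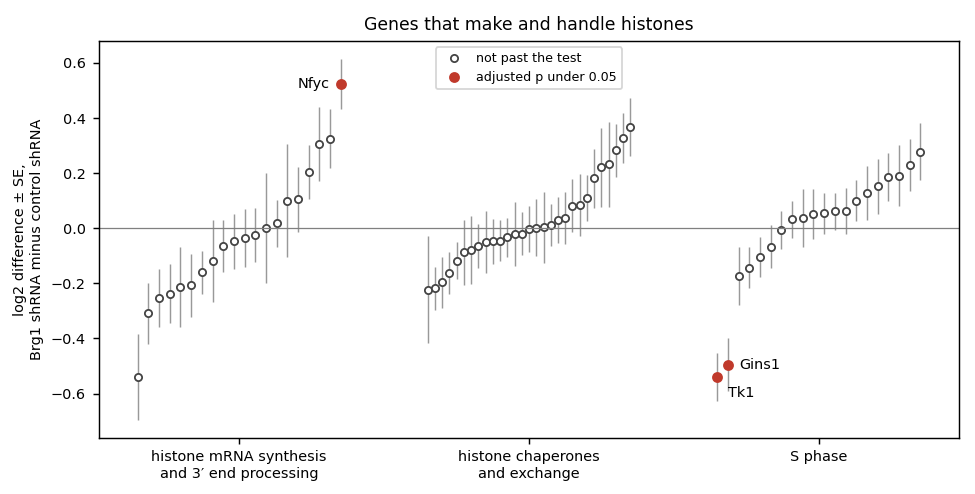
The log2 difference ± SE, Brg1 shRNA minus control shRNA, of 20 genes of histone mRNA synthesis and 3' end processing, 29 histone chaperones and exchange factors and 20 S phase genes, sorted within each list. The 3 filled points, Nfyc above 0 and Gins1 and Tk1 below, had an adjusted p under 0.05 (limma), and the other 66 did not.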

How the data were processed

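The authors' deposited values were 1 intensity per probe set and array, from GCOS per the submitters' processing notes. The version, algorithm, scaling target and reverse transcription primer were among details not given in the sources used here. Trimmed by 2% of values on either side, each array had a mean of 200.1. Detection calls were not used. Of 22690 probe sets, 64 are controls; of the rest 20380 had 1 gene, 691 several and 1555 none. Symbols were updated by Entrez ID through RefSeq (GRCm38.p6).

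Knockdown and control (2 arrays each) were compared with limma 3.58.1 in R 4.3.3 (lmFit, eBayes with an intensity trend, two-sided) on log2(signal + 20.0), the pseudocount being 10% of the trimmed mean, without further normalization. Every probe set with a mean at or above the 40th percentile was tested by itself, so that probe sets of several genes are included. P-values were adjusted by Benjamini-Hochberg over 13576 probe sets, threshold 0.05. For pathway and marker genes, the brightest probe set with 1 gene was used, _x_at ones as a last choice. H2aw (synonym Hist3h2a) and H4bc24 were counted as replication-dependent, which was decided after the files were seen. Values on every array are given for members past the test, each variant gene's brightest tested probe set and the brightest replication-dependent ones, and further members were added after their values were seen. The members, lists and tests were chosen with earlier results of these data known. The replicates were duplicate infections of 1 line, per the series design, so p-values measure the spread between those. No depth exists for arrays, and their number limits the precision. Tested on simulated data for this comparison with 13576 probe sets, the fit recovered 49 of 100 changes of 0.5 and 100 of 100 of 1 (log2), and called 3 unchanged ones. The simulated noise was normal, with a spread set by the mean signal alone, and no other probe sets were changed. Recovery in the real data can therefore differ. Alternatives changed the pseudocount, filter, scaling, variance model, threshold, unit and class, left out each array, and fitted replicate number as a block.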

Additional observations from a re-analysis of the deposited data

How the results depend on the processing

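In the values as reported, 3 of 31 histone probe sets were higher and 2 lower, of them 2 and 1 among 12 replication-dependent and 1 and 0 among 11 variant ones, and 1 pathway gene was higher and 2 lower. The falls are the least stable. The number of histone probe sets lower was 1 with the smaller pseudocount, 1 without the intensity trend, 0 without a filter, 6 with median centring (3 of them variants), 1 with the spike-in scaling, 0 at a threshold of 0.01 and 7 at 0.1. Without a filter 1 replication-dependent probe set was higher and 0 lower, and the variant median was 0.040. With the filter at the 60th percentile 1 replication-dependent probe set was left (median -0.039), so 0 were higher and 0 lower, and 1 of all histone probe sets was higher. The replication-dependent median was 0.23 and 0.080 with the smaller and larger pseudocount. It was 0.12, 0.10 and 0.38 with median centring, quantile normalization and spike-in scaling, and the variant median -0.11, 0.0074 and 0.27. With spike-in scaling, 6 histone probe sets (3 of them variants) and 8 pathway genes were higher, and 0 pathway genes lower. With 1 probe set per gene, 1 of 11 histone genes was higher, 0 of 3 replication-dependent (median 0.053), 2 of 8 variants were lower (median -0.11), and 3 pathway genes were higher. In probe sets of 1 gene not ending in _x_at or _s_at, 0 replication-dependent ones were higher and 0 lower (2 tested), and the variant median was -0.11. With H2aw as a variant, 0 replication-dependent and 1 variant probe set were lower (variant median -0.11). With the mixed H2az1 and H3.3 probe sets as variants, 1 was lower and the median was -0.13.

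The labels do not say what a replicate number shares. Deviations of same-numbered arrays correlated at -0.14 over the tested probe sets, while the actin 3' to 5' ratio was 1.36 on both arrays numbered 1 and 1.31 on both numbered 2, so whether the numbers pair the arrays is not settled. With the replicate number as a block, 5 histone probe sets were lower, 2 of them variants (H2az1, adjusted p = 0.00984, and Cenpa, 0.0306, by limma); with the pairing crossed, chosen after seeing the data, 5 histone, 2 replication-dependent and 2 variant probe sets were lower and 3 pathway genes higher. The causes were not tested.

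Without 1 array in turn, the count of histone probe sets higher was 2 to 3 and lower 0 to 7, with 7 without knockdown replicate 1 and 0 without knockdown replicate 2 or control replicate 1. For replication-dependent ones, 1 to 2 were higher and 0 to 2 lower, with a median of 0.14 to 0.18. For variants, 1 to 1 was higher and 0 to 2 lower, with a median of -0.16 to -0.044. For pathway genes, 1 to 3 were higher and 1 to 2 lower. The group with 1 array left is assumed to vary like the other. Across all probe sets, against 1240 called, 1693, 646, 551 and 665 were called without knockdown replicate 1, knockdown replicate 2, control replicate 1 and control replicate 2. The count was 452 without a filter, 2198 with spike-in scaling, 747 without the intensity trend, 2058 with the pairing crossed, 337 at a threshold of 0.01 and 2384 at 0.1. The probe set 1422948_s_at, annotated to H4 genes, and Macroh2a1 kept their calls under each alternative in which they were tested. The former was below the 60th percentile filter and, having several genes, is not in the gene-level fit.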
